A study of Homo sapiens with 6 samples.

Results

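Solute carriers, ion channels and pumps are the membrane proteins that move ions and small molecules into and out of cells and organelles. They were taken from the listed genes by symbol, namely the SLC carriers, ABC transporters of subfamilies A, B, C and G, P-type and V-type ATPases, and the potassium, sodium, calcium, chloride, other cation and ligand-gated channel families, and 29 of 753 listed genes qualified. The cells were AsPC-1, an established human pancreatic cancer cell line, with 3 samples given a control lentivirus (control group) and 3 given a lentivirus whose short hairpin RNA targets TMPRSS4, a membrane serine protease (shTMPRSS4 group). All 6 were therefore lentivirus-treated, and the labels give neither the number of hairpins, the time after transduction, nor whether the replicates were separate cultures, so p-values measure only the spread between these samples. Every listed gene had been selected by the authors for a difference between these same libraries. The tests below describe the listed genes and are not independent of that selection, and genes outside it, TMPRSS4 among them, were not analysed here, so the knockdown was not checked. The symbol rule also took in GRIP1, a scaffold protein that transports nothing.

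Carriers of the SLC type move solutes down a gradient or couple them to sodium or protons, ABC transporters and P-type ATPases spend ATP, and channels open a pore through which ions follow their electrochemical gradient. In the pancreatic duct such proteins set bicarbonate and chloride secretion, calcium signals and cell volume, while in tumour cells they also supply amino acids and expel drugs. Many channels consist of a pore-forming subunit and auxiliary subunits that alter its gating and its delivery to the membrane.

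Read depth recovered from the table lay between 30200000 and 57200000 per library. The shTMPRSS4 libraries had 46800000 to 53300000, and the lowest depth was that of control replicate 3, which is also the single library with lane code L3. Without it 20 members were called higher and 8 lower of 28 tested, beside 72.5% and 25.1% of the 726 listed genes then tested. Levels are FPKM (fragments scaled by gene length and sequencing depth), so genes of different length can be compared. In bulk RNA, fewer cells that express a gene and less RNA per cell cannot be told apart. The cell type could not be checked on its markers, because of 10 ductal and epithelial tumour genes only CEACAM6 was among the listed genes. It was lower in shTMPRSS4, at 12.3 ± 0.870 FPKM in control and 3.80 ± 0.125 FPKM in shTMPRSS4 (SD, n = 3).

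The sequences just upstream of 4 members are given here because these are the 2 largest rises and the 2 largest falls among members that reached a group mean of 1 FPKM. Each is the 250 bases before a RefSeq transcription start (GRCh38.p14), 5′ to 3′ on the strand of the gene. Capitals mark the core words of the hypoxia response element, ACGTG and GCGTG, on either strand.
SLC1A7, chr1:53142639-53142888, minus strand: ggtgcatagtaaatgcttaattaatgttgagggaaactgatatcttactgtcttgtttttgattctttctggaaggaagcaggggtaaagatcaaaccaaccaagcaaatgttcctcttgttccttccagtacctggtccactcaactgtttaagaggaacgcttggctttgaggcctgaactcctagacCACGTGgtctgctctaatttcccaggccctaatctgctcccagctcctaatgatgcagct
SLC38A11, chr2:164955526-164955775, minus strand: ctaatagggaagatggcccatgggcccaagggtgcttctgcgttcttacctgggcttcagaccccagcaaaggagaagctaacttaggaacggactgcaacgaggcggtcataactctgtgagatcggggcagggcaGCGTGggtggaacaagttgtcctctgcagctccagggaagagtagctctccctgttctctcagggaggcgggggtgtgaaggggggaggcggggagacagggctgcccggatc
ABCG2, chr4:88158860-88159109, minus strand: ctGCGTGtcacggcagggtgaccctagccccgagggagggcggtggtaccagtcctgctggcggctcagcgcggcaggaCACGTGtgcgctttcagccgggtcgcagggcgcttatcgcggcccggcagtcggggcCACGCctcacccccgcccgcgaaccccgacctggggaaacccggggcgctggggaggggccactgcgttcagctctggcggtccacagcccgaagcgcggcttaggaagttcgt
CLCN1, chr7:143315861-143316110, plus strand: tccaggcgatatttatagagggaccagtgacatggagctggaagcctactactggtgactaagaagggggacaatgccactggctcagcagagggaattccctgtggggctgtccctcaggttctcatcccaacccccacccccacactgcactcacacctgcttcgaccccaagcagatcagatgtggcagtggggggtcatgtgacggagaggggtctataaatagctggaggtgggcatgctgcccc
RefSeq promoter windows matched 19 of the 29 members, with 28 windows because some genes have several starts, and the ABCG2 window shown is 1 of 5. ACGTG was present in 28.6% of these windows and in 18.5% of 35116 windows of the same length, and GCGTG in 35.7% against 32.2%. ABCG2 held both words in the window shown and in the window that starts at 88158910, which overlaps it and holds the same CACGTG. That site is thus counted in both windows. The ABCG2 window that starts at 88158640 held GCGTG alone, and those that start at 88159291 and 88231627 held neither word. Among the 6 matched members that were lower 3 had ACGTG (ABCG2, KCNN4 and SLC16A9). Of the 13 matched members that were higher 4 had it (KCNH8, SLC1A7, SLC35E2B and SLC6A16). In 5 members (ABCG2, KCNN4, SLC16A9, SLC1A7 and SLC6A16) the word lay inside the palindrome CACGTG and so was read on both strands, and in 1 window, of SLC6A16, ACGTG and GCGTG shared bases. The antioxidant response word TGANNNNGC was in 50% of member windows against 35.2% of all windows. ATCAAAG, a TCF/LEF word, and TGATGNAA, an ATF4 word, had no match in the member windows and were in 2.26% and 3.14% of all windows. A match describes letters only.

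Most members were at low levels. The median over members of the mean of 6 libraries was 0.523 FPKM, against 1.10 FPKM over all 753 listed genes. Of the 29 members 17 stayed under 1 FPKM in both group means (58.6%, against 39.2% of all listed genes). By the authors' deposited table, shTMPRSS4 was the higher group for 20 members and the lower group for 9, a share of 69.0% higher against 73.7% of the 753 genes. Of the 27 members kept by the filter on low counts, 20 rose and 7 fell at an edgeR quasi-likelihood adjusted p under 0.05. The background was 73.3% of 705 tested genes called higher and 25.8% called lower, with 99.1% in either direction, so nearly every listed gene passed and the members' share was close to the background. With TMM scaling over the listed genes, 10 members were called higher and 7 lower, beside 23.7% and 27% of the 705 genes. With DESeq2 size factors over the listed genes 11 members were called higher and 7 lower, beside 25.5% and 26.5% of the 705 genes. The 3 libraries of a group did not overlap those of the other for any of the 29 members, as was so for 97.7% of the listed genes. The summed level of the 29 members was 35.6, 40.2 and 34.1 FPKM in control replicates 1, 2 and 3 and 69.4, 67.1 and 72.9 FPKM in the shTMPRSS4 replicates. The sum rests largely on a few abundant genes and is not read as a general rise of transport genes. Group means rose from 3.27 to 12.99 FPKM for CACNG4, 8.78 to 17.77 for ATP2A3 and 7.15 to 14.95 for SLC35E2B. ATP2A3 and SLC35E2B turned to the lower side under TMM and DESeq2 size factor scaling over the listed genes. The 9 lower members included ABCG2, which fell from 7.83 to 2.4 FPKM.

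**Figure D1:**
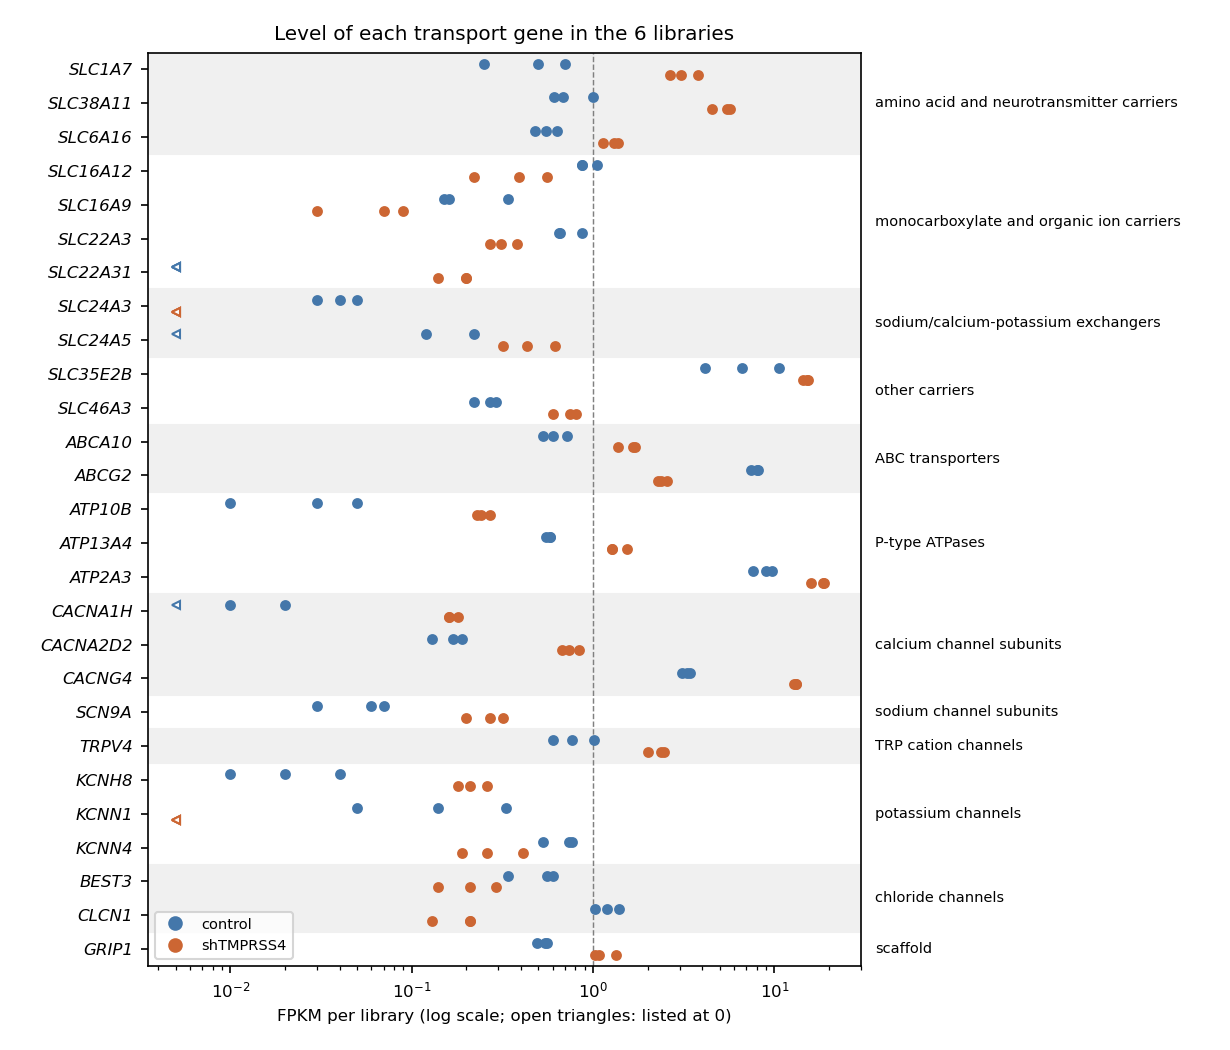
Level of 27 transport genes in every library, on a logarithmic FPKM axis, grouped by role, with blue points for control and orange points for shTMPRSS4 and open triangles where a library is listed at 0. In no gene do the 2 colours overlap, and most genes have both group means below the dashed line at 1 FPKM.

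All 3 calcium channel subunits among the members rose, and they kept that direction under each scaling tried. Outside the members, TMEM37, annotated under calcium ion transport and voltage-gated ion channel activity, was lower. CACNG4 (ENSG00000075461, GRCh38 chromosome 17, 66964910 to 67033398) encodes a gamma subunit that also serves as an auxiliary protein of AMPA-type glutamate receptors. It was at 3.28, 3.44 and 3.10 FPKM in control replicates 1, 2 and 3 and at 12.8, 13.2 and 13.1 FPKM in shTMPRSS4. The libraries of each group were almost level, and the change of 1.99 ± 0.04 (log2, SE, n = 3 per group) had the smallest SE among the members (edgeR adjusted p = 2.62e-09). With 1383 control and 6605 shTMPRSS4 counts, its variance between libraries was 0.945 and 0.63 times that expected from counting error alone. CACNA2D2, an alpha2delta subunit that raises channel delivery to the membrane, rose from 0.163 ± 0.0306 to 0.75 ± 0.0854 FPKM (SD, n = 3). CACNA1H, the pore of a low-voltage-activated T-type channel, had 6 counts over the 3 control libraries and 153 over the shTMPRSS4 libraries. Its means were 0.01 and 0.167 FPKM, far below those of CACNG4 in both groups. No other pore-forming calcium channel gene was among the members, so the levels of the others are unknown. Whether these 3 subunits act in the same channel was not tested. Genes on the opposite strand overlap 6.78% of the exonic bases of CACNG4 and 9.59% of those of CACNA2D2.

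SCN9A, a pore-forming sodium channel subunit best known from pain-sensing neurons, rose from 0.0533 ± 0.0208 to 0.263 ± 0.0603 FPKM. Of its exonic bases 8.17% overlap genes on the opposite strand, and reads of the 2 strands may not have been told apart. TRPV4 (ENSG00000111199, chromosome 12, 109783085 to 109833401), a calcium-permeable channel opened by cell swelling and mechanical load, was at 0.77, 1.01 and 0.60 FPKM in the controls and 2.02, 2.45 and 2.38 FPKM in shTMPRSS4. The lowest shTMPRSS4 library was above the highest control, and the log2 change was 1.55 ± 0.23 (edgeR adjusted p = 4.81e-05), though it did not pass under TMM or DESeq2 size factor scaling over the listed genes.

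Potassium channels went both ways. KCNH8, a voltage-gated channel, was at 0.01, 0.04 and 0.02 FPKM in the controls and rose to 0.26, 0.18 and 0.21 FPKM, a log2 change of 3.19 ± 0.41 on 14 control and 167 shTMPRSS4 counts. The calcium-activated channels were lower. KCNN4 (ENSG00000104783, chromosome 19, 43766533 to 43781261), which provides the potassium exit that drives chloride secretion in epithelia, was at 0.53, 0.77 and 0.74 FPKM in the controls and fell to 0.19, 0.26 and 0.41 FPKM (log2 change -1.29 ± 0.36, edgeR adjusted p = 0.00623). KCNN1, a small-conductance channel of the same family, had 37, 10 and 3 counts in the controls and 0 in each shTMPRSS4 library. It was at least 20.1-fold lower when the shTMPRSS4 libraries together are set to 3 counts, a limit for counting error alone. Of its 50 control counts 37 came from control replicate 1, and the limit was 9.67-fold without that library, 13.0-fold without shTMPRSS4 replicate 1 and 13.4-fold without shTMPRSS4 replicate 2. The filter removed KCNN1, so it was not tested, and its controls ranged from 0.05 to 0.33 FPKM, a variance 8.54 times that of counting error.

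Both chloride channels fell. CLCN1 (ENSG00000188037, chromosome 7, 143316126 to 143352083), known as the chloride channel of skeletal muscle, was at 1.39, 1.19 and 1.02 FPKM in the control replicates and at 0.13, 0.21 and 0.21 FPKM in the shTMPRSS4 replicates. Among tested members this was the largest fall, at -2.71 ± 0.26 on the log2 scale (edgeR adjusted p = 3.01e-06). BEST3, a bestrophin, fell from 0.50 ± 0.14 to 0.213 ± 0.0751 FPKM. Its groups came close, with a control low of 0.34 and a shTMPRSS4 high of 0.29 FPKM.

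**Figure D2:**
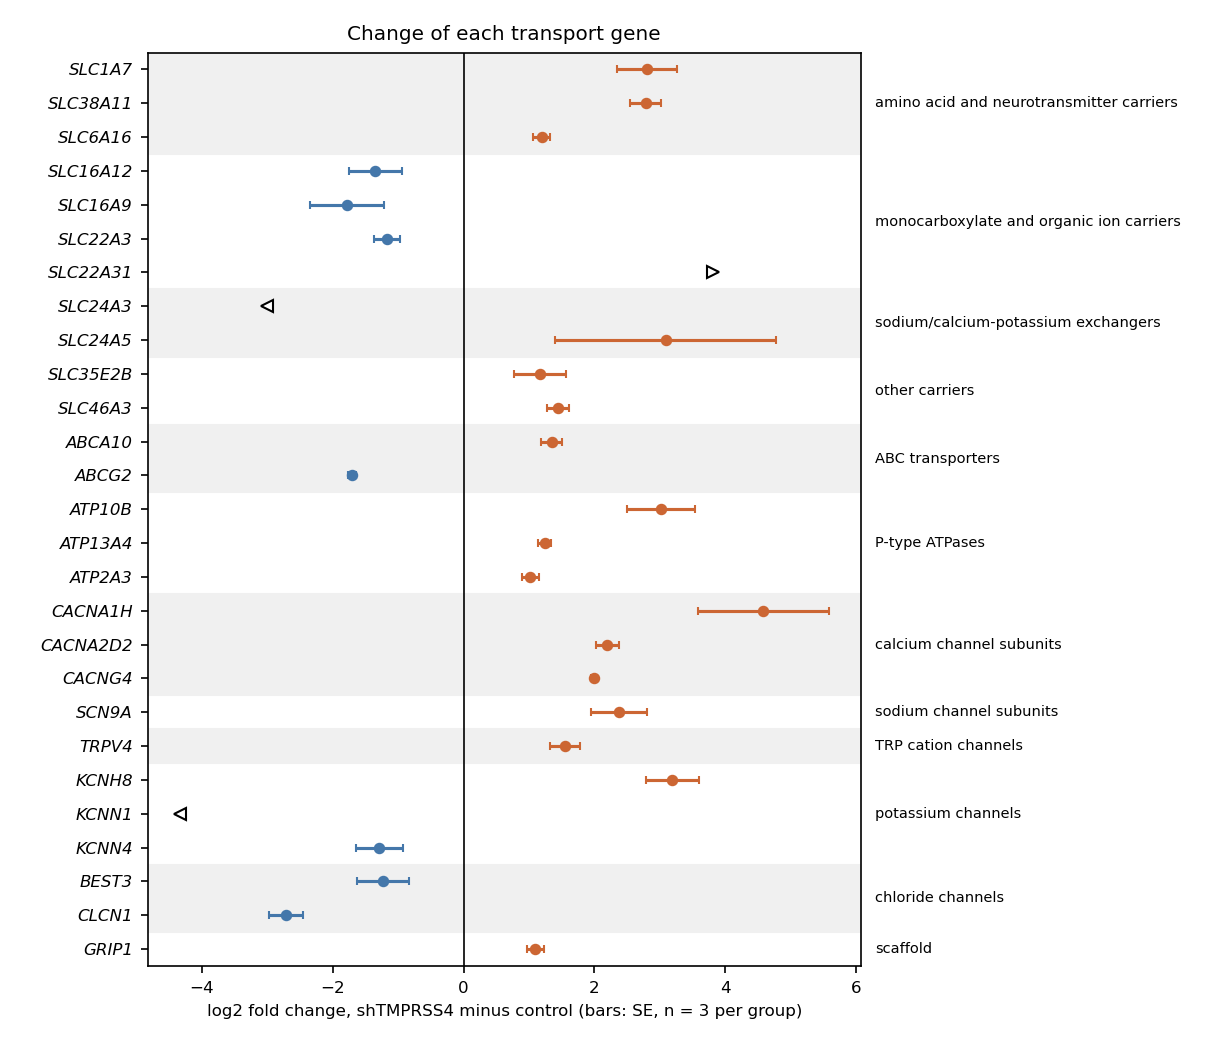
Log2 fold change of shTMPRSS4 against control for 27 transport genes with bars for the SE (n = 3 per group), orange for higher and blue for lower, and open triangles for the lower bound where a group had 0 counts. Calcium channel subunits lie to the right and both chloride channels to the left, while carriers, ABC transporters and potassium channels lie on both sides. ATP2A3, GRIP1 and SLC35E2B would cross to the left under TMM or DESeq2 size factor scaling over the listed genes, and SLC6A16 under TMM.

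Amino acid and neurotransmitter carriers were higher in all 3 cases, although SLC6A16 turned to the lower side under TMM scaling over the listed genes. SLC38A11 (ENSG00000169507, chromosome 2, 164896186 to 164955525) belongs to the family of sodium-coupled neutral amino acid carriers. Its control replicates had 1.0, 0.61 and 0.68 FPKM and its shTMPRSS4 replicates 5.49, 4.5 and 5.66 FPKM. No control library came near the shTMPRSS4 range, and the log2 change was 2.79 ± 0.24 (edgeR adjusted p = 5.55e-07). SLC1A7 (ENSG00000162383, chromosome 1, 53087179 to 53142632) encodes a glutamate carrier of the retina that also conducts chloride. It was at 0.50, 0.70 and 0.25 FPKM in the controls and 2.66, 3.05 and 3.78 FPKM in shTMPRSS4, a log2 change of 2.81 ± 0.46 (edgeR adjusted p = 2.34e-05). Both groups of SLC1A7 were uneven, with a variance 8.63 and 13.0 times that of counting error. SLC6A16, an orphan of the neurotransmitter carrier family, was at 0.63, 0.55 and 0.48 FPKM in the controls and 1.30, 1.14 and 1.37 FPKM in shTMPRSS4, a log2 change of 1.20 ± 0.13 (edgeR adjusted p = 7.84e-04).

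Carriers of monocarboxylates and organic ions were mostly lower, with 3 of 4 falling. SLC16A12, a creatine carrier, had 0.87, 0.87 and 1.05 FPKM in the controls and 0.39, 0.22 and 0.56 FPKM in shTMPRSS4, a log2 change of -1.35 ± 0.41 (edgeR adjusted p = 0.00287). SLC16A9, of the same family, had 0.15, 0.16 and 0.34 FPKM and then 0.09, 0.03 and 0.07 FPKM, a log2 change of -1.78 ± 0.57 (edgeR adjusted p = 0.00493). Both rest on uneven libraries, since the variance was 9.32 times that of counting error in the shTMPRSS4 libraries of SLC16A12 and 7.36 times in the controls of SLC16A9. SLC22A3, a polyspecific organic cation carrier that takes up monoamines, fell from 0.727 ± 0.124 to 0.32 ± 0.0557 FPKM. SLC22A31, an orphan of that family, had 0 counts in each control and 14, 19 and 18 counts in the shTMPRSS4 replicates (0.14, 0.20 and 0.20 FPKM), and was at least 14.1-fold higher with the controls together set to 3 counts (edgeR adjusted p = 3.24e-04). Without control replicate 1 that limit was 7.62-fold. SLC22A31 was the 1 member of 29 at 0 in all controls, against 6.51% of the listed genes, while KCNN1 and SLC24A3 were at 0 in all shTMPRSS4 libraries, against 1.06%.

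The exchangers that swap sodium for calcium and potassium split. SLC24A3, of the plasma membrane, had 11, 5 and 4 counts in the controls (0.05, 0.04 and 0.03 FPKM) and 0 counts in the shTMPRSS4 libraries, at least 8.05-fold lower by the same limit, and was not tested. The limit was 5.20-fold without shTMPRSS4 replicate 1 and 5.35-fold without shTMPRSS4 replicate 2. SLC24A5, an intracellular exchanger of pigment cells, had 26, 9 and 0 counts in the controls and 69, 34 and 42 in shTMPRSS4. It passed with an edgeR adjusted p of 0.0175, and the call was lost without control replicate 2 (adjusted p = 0.0602) or shTMPRSS4 replicate 1 (0.0644). MYEF2, on the opposite strand, shares 30.1% of the 31-base words of SLC24A5 transcripts, so reads of these genes may not have been separated.

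Of the other carriers, SLC46A3, a lysosomal carrier, rose from 0.26 ± 0.0361 to 0.72 ± 0.108 FPKM. SLC35E2B (ENSG00000189339, chromosome 1, 1659529 to 1692728), of the nucleotide sugar carrier family, was at 6.65, 10.6 and 4.15 FPKM in control replicates 1, 2 and 3 and at 15, 15.4 and 14.4 FPKM in shTMPRSS4. The variance between controls was 245 times that of counting error on 4324 counts, the largest such ratio among the members, whereas the shTMPRSS4 libraries were close together. Its edgeR adjusted p was 0.0418, and the call was lost without control replicate 1 (adjusted p = 0.123), shTMPRSS4 replicate 1 (0.0783), replicate 2 (0.10) or replicate 3 (0.0987), and its direction turned under TMM and DESeq2 size factor scaling over the listed genes. The near-identical neighbour SLC35E2A shares 52.7% of its 31-base words, so the level of SLC35E2B depends on how shared reads were assigned and is uncertain.

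The ABC transporters ABCG2 and ABCA10 moved in opposite directions. ABCG2 (ENSG00000118777, chromosome 4, 88090264 to 88231322), the efflux pump that exports urate and many drugs, was at 8.08, 7.40 and 8.01 FPKM in the controls and at 2.27, 2.38 and 2.55 FPKM in shTMPRSS4. It was 3.26-fold lower, with a log2 change of -1.71 ± 0.06 (edgeR adjusted p = 6.97e-08) and a variance between libraries 1.70 and 1.01 times that of counting error. In the controls ABCG2 was among the 3 most abundant members, beside ATP2A3 and SLC35E2B with overlapping libraries, and in shTMPRSS4 it was below ATP2A3, SLC35E2B, CACNG4, SLC38A11 and SLC1A7 and overlapped TRPV4. ABCA10, of the lipid-transporting subfamily, was at 0.72, 0.53 and 0.60 FPKM in the controls and rose to 1.70, 1.38 and 1.66 FPKM (log2 change 1.35 ± 0.16, edgeR adjusted p = 1.20e-04). It shares 3.78% of its exonic bases with ABCA5 on the same strand.

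All 3 P-type ATPases were higher, but ATP2A3 turned to the lower side under TMM and DESeq2 size factor scaling over the listed genes. ATP2A3 (ENSG00000074370, chromosome 17, 3923870 to 3964464), a pump that returns calcium to the endoplasmic reticulum, had the highest mean of the members in both groups, although ABCG2 was above it in control replicate 1 and SLC35E2B in control replicate 2. Its control replicates had 7.62, 8.98 and 9.73 FPKM and its shTMPRSS4 replicates 18.5, 16.0 and 18.8 FPKM, a log2 change of 1.02 ± 0.13 (edgeR adjusted p = 4.28e-06). The variance was 17.7 and 20.5 times that of counting error in the control and shTMPRSS4 groups. ATP13A4, of the polyamine and cation pump family, was at 0.58, 0.55 and 0.58 FPKM in the controls and 1.27, 1.27 and 1.54 FPKM in shTMPRSS4, a log2 change of 1.24 ± 0.09 (edgeR adjusted p = 9.39e-05). It overlaps other genes over 4.49% of its exonic bases on the same strand and 5.80% on the opposite strand. ATP10B, a lipid flippase, had 0.05, 0.03 and 0.01 FPKM in the controls and 0.23, 0.27 and 0.24 FPKM in shTMPRSS4, a rise of 3.02 ± 0.51 on the log2 scale from 22 control counts.

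GRIP1, the scaffold that binds AMPA-type glutamate receptors, was at 0.49, 0.56 and 0.54 FPKM in the controls and rose to 1.03, 1.08 and 1.33 FPKM (log2 change 1.10 ± 0.13, edgeR adjusted p = 6.36e-04), a direction that turned under TMM and DESeq2 size factor scaling over the listed genes. CACNG4 and GRIP1 both act on AMPA-type receptors, and no gene of the ionotropic glutamate receptor family itself was among the members.

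**Figure D3:**
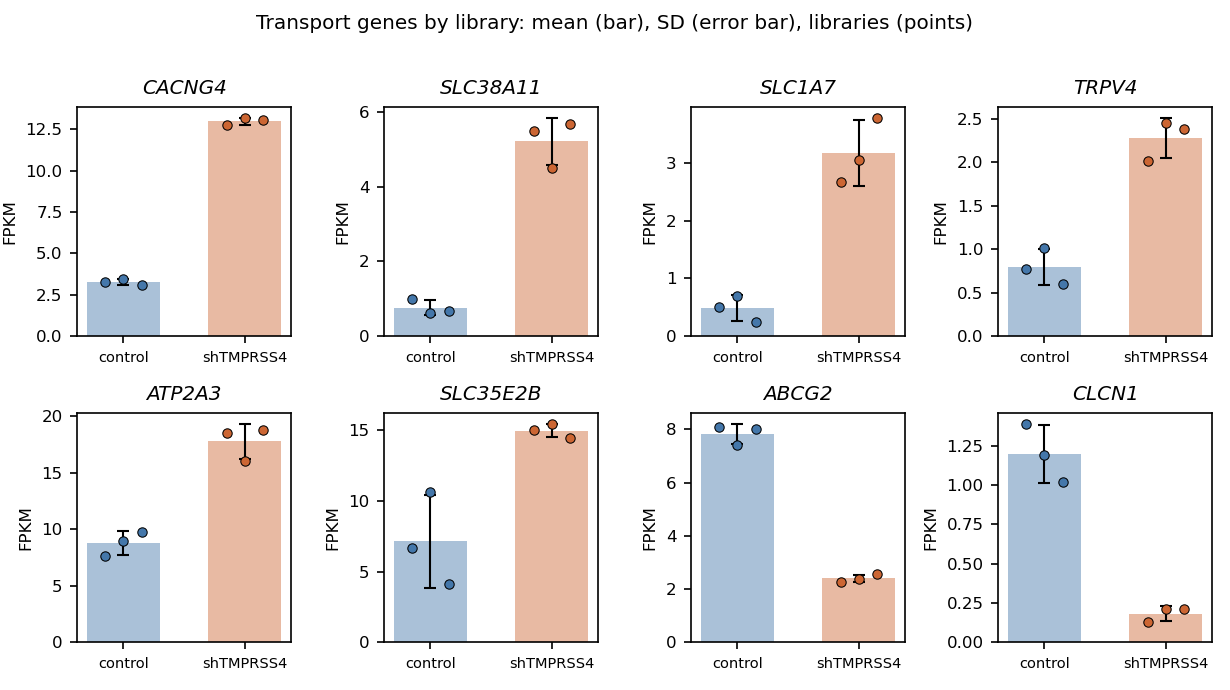
FPKM of 8 transport genes by library on linear axes from 0, with bars for the mean of 3 libraries, error bars for the SD and points for libraries in replicate order. CACNG4 and ABCG2 have tight groups that lie far apart, and the controls of SLC35E2B scatter from 4.15 to 10.6 FPKM. ATP2A3 and SLC35E2B would turn to the lower side under TMM or DESeq2 size factor scaling over the listed genes.

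The size of the median change was 1.45 on the log2 scale over the 27 tested members and 1.29 over the 705 tested genes. Members that were higher had a median of 2.24 against 1.56 for all higher genes, and members that were lower -1.35 against -1.34. Among the largest rises, CACNA1H, KCNH8 and SLC22A31 had 6, 14 and 0 control counts. Over the 12 members with at least 1 FPKM in the higher group, of either direction, the median was 1.22. That value mixes 10 higher and 2 lower members, so it cannot be set directly against the 2.24. Because some of the largest rises had few control counts, the 2.24 is not read as a larger rise of transport genes. TMM scaling over the listed genes moved the median of all tested genes by -1.20, DESeq2 size factors by -1.16 and upper-quartile scaling by -0.66. Directions are therefore relative to the recovered depth. ATP2A3, GRIP1 and SLC35E2B turned under the first 2 and SLC6A16 under TMM, and every other tested member kept its direction under these scalings. The calls of ABCA10, ATP13A4, SLC46A3, SLC24A5, SLC6A16 and TRPV4 were lost under TMM and DESeq2 size factors and those of GRIP1, SLC24A5, SLC35E2B and SLC6A16 under upper-quartile scaling.

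**Figure D4:**
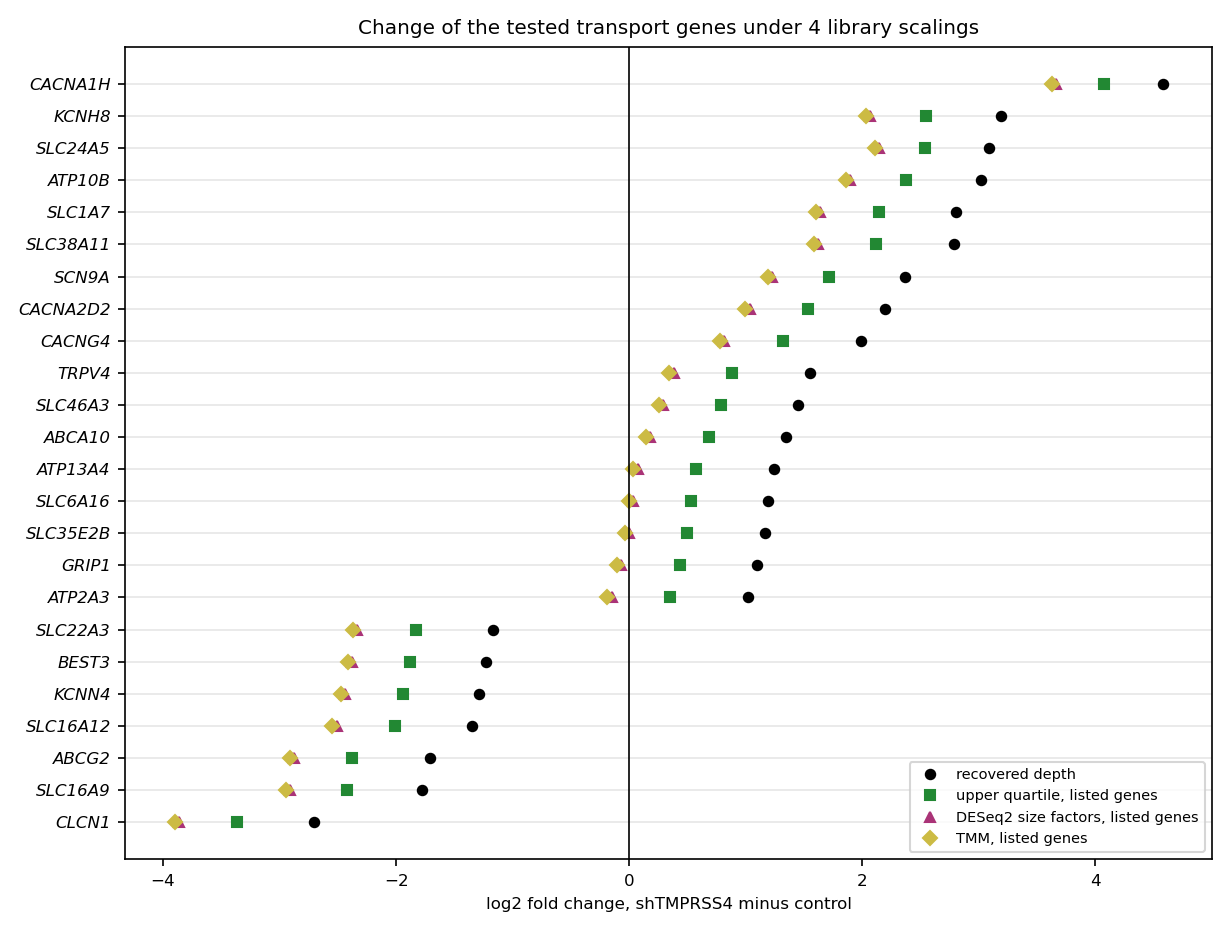
Log2 fold change of 24 tested transport genes (SLC22A31, at 0 in the controls, is left out) under recovered depth (black) and under upper-quartile, DESeq2 size factor and TMM scaling over the listed genes. ATP2A3, GRIP1 and SLC35E2B cross 0 under DESeq2 size factors and TMM and SLC6A16 under TMM, while the genes from CACNG4 upward and the falling genes keep their sides.

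Other genes of ion and solute transport that the symbol rule does not take in were counted from a separate list of channels, pumps, regulators and carbonic anhydrases. Of 139 such genes 14 were among the listed genes, 9 higher and 5 lower, and of the 13 tested 8 rose and 5 fell at an edgeR adjusted p under 0.05. Since 99.1% of the 705 tested genes passed, 73.3% higher and 25.8% lower, nothing is read from these 13 passing. The intracellular calcium release channels ITPR2 (1.07 ± 0.103 FPKM in control, 3.52 ± 0.239 FPKM in shTMPRSS4) and RYR2 (0.387 ± 0.0252 and 1.13 ± 0.0520 FPKM) rose. FXYD2, a subunit that tunes the sodium pump, rose from 17.1 ± 0.964 to 45.6 ± 2.25 FPKM, and PDZK1, a scaffold for apical carriers, from 1.43 ± 0.204 to 5.83 ± 0.24 FPKM. The log2 change of FXYD2 was 1.41 with the recovered depth and 0.20 with TMM scaling over the listed genes, where its call was lost, and the calls of FXYD6 and TTYH2 were lost with TMM and with DESeq2 size factors. The mechanically gated channel PIEZO2 rose from 0.0833 ± 0.0231 to 0.463 ± 0.15 FPKM. On the lower side, SGK2, a kinase that stimulates channels and carriers, fell from 34.2 ± 3.01 to 14.7 ± 0.862 FPKM, and the gap junction genes GJA1 and GJB5 fell to 0.0333 ± 0.0153 and 0.17 ± 0.121 FPKM. CA9 and CA12, the membrane carbonic anhydrases that supply protons and bicarbonate for carriers, were the other 2 that fell. BSND, a subunit of kidney-type chloride channels, had 8 control and 283 shTMPRSS4 counts, while both chloride channels among the members were lower.

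Some markers of other cell types were among the listed genes. Every listed gene was selected for a difference, and 73.7% of the 753 were higher. Nothing is therefore read from the number or direction of listed markers. Of 8 goblet cell genes 4 were listed and higher, with a summed level of 12.4 to 15.8 FPKM in control and 157 to 160 FPKM in shTMPRSS4 libraries. ZG16 was at 0 in the controls and reached a mean of 0.0633 FPKM on 32 counts in shTMPRSS4, and was not tested. Of 10 endocrine genes 4 were listed and higher, summing to 0.24 to 0.25 and 13.1 to 14.6 FPKM, with GCG, PAX4 and RFX6 at 0 in the controls. Most of that sum was NEUROG3, with means of 0.247 FPKM in control and 11.6 FPKM in shTMPRSS4. GCG reached only 0.15 FPKM on 24 counts in shTMPRSS4 and was not tested. Of 6 ionocyte genes BSND was listed, and of 6 acinar genes CELA3A, summing to 0.26 to 0.34 and 3.15 to 4.34 FPKM. Of 6 fibroblast genes FAP, which rose, and of 4 endothelial genes PECAM1, which fell, were listed, and of the neuronal, tuft and immune lists none. The part of these genes' cell types in the changes of the transport genes was not tested.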

How the data were processed

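One table was used. Its values were made by the authors and are, per the file headers, a read count and an FPKM value of every gene in each library, with the deposited mean FPKM per group, log2 fold change, p-value and FDR. Per the submitters' processing notes Bowtie 0.12.2 was used, with mouse builds named although all 753 identifiers are human. Counter and annotation: not given in the sources used here. Deposited means of 0 are written as 0.001, so the authors' deposited table gives SLC22A31, KCNN1 and SLC24A3 log2 fold changes of 7.49, -7.44 and -5.32 that depend on this placeholder. Rows had an FDR of at most 0.0490 after adjustment over 15117 genes and a log2 fold change of at least 1.0 in size.

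Depth per library was recovered from the ratio of count to FPKM over 159 genes with at least 200 counts, and its absolute scale from 12 genes with 1 transcript in GENCODE release 29. It replaced TMM, which would centre selected genes on 0. In R 4.3.3, edgeR 4.0.16 was used for a robust quasi-likelihood test after its low-count filter, on all listed genes (705 tested) with Benjamini-Hochberg adjustment and a threshold of 0.05. Fold changes are differences of mean log2 depth-scaled counts plus 0.5, with the SE from 3 against 3 libraries. Variance between libraries is given as the variance of counts over that expected from counting. DESeq2 1.42.0, limma 3.58.1, other scalings and filters, a replicate block and leaving out each library were tried. Counts were simulated for the 705 tested genes, and 694 of these passed the low-count filter again. Among the 694 the test recovered 39.7% of genes changed 1.5-fold, 80.0% changed 2-fold and 100% changed 4-fold. It called 1 of 498 unchanged genes. Rises and falls were drawn equally often there, and each gene had the spread typical of its level, not its own. In the data 99.1% of the tested genes passed, so these shares do not carry over to the listed genes.

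Members named with every library had at least 1 FPKM in the higher group, were among the 5 largest rises or falls with at least 10 counts in each group, or had 0 counts in a group. The members and lists were chosen with earlier results of these data known. Of the members, 2 are counted in the totals but not reported here by name.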

Additional observations from a re-analysis of the deposited data

How the results depend on the processing

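The 20 higher and 7 lower transport genes kept their counts within 1.5 times under the DESeq2 test with the recovered depth. The same held for both limma fits and for no filter on low counts. Upper-quartile scaling also stayed within that limit, but with 16 higher and 7 lower members. A limit of at least 2-fold left 20 and 7. That limit was no separate check, since every listed gene had a deposited log2 fold change of at least 1.0 in size. TMM and DESeq2 size factors over the listed genes gave 10 and 11 higher genes. Members with at least 1 FPKM were 10 higher and 2 lower, since fewer genes were counted, and had a median log2 change of 1.22. The median log2 change of 1.45 became 0.25 with TMM, 0.29 with DESeq2 size factors, 0.79 with upper-quartile scaling, and 1.18 or 0.39 with limma on log2(FPKM + 0.1) or log2(FPKM + 1), where the added constant shrinks low genes. It stayed at 1.45 with SLC22A31 at its bound, and without the 2 members of 29 with at least 20% of their 31-base words in other genes 18 were higher and 7 lower (both settings, and the limits without single libraries for members at 0 in a group, were chosen after seeing the data). Reversed values under TMM were -0.19 for ATP2A3, -0.10 for GRIP1, -0.039 for SLC35E2B and -0.0013 for SLC6A16, and under DESeq2 size factors -0.15, -0.066 and -0.0025 for the first 3. Leaving out 1 library gave 18 to 20 higher and 7 to 8 lower members, of 27 or 28 tested, and a median of 1.33 to 1.51. Beside this, 512 to 526 listed genes were called higher and 178 to 185 lower, of 711 to 726 tested. The members thus followed the listed genes as a whole. Over all 705 tested genes, 517 higher and 182 lower became 167 and 190 with TMM, 180 and 187 with DESeq2 size factors and 412 and 187 with upper-quartile scaling.

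Same-numbered libraries did not deviate together (correlations of -0.072, -0.059 and -0.022 over 705 genes). With 3 libraries per group and selected genes, this cannot show whether a number marks a shared culture or preparation. The labels do not say it either. With the replicate block 19 of 27 tested members were higher and 7 lower, beside 507 and 175 of the 705 tested genes. SLC35E2B did not pass with the block (edgeR adjusted p = 0.0714 against 0.0418).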

Other observations

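Annotation terms in the deposited table, read after the values were seen, place 15 further listed genes under ion transport beside 19 of the transport genes. Of these 15, 9 were higher and 6 lower, and of the 19 transport genes 13 were higher and 6 lower. Calcium ion transport held 8 of the transport genes, 6 higher and 2 lower, and 5 others, 4 higher and 1 lower. Voltage-gated ion channel activity held 8 of the transport genes, of which 7 were higher and 1, CLCN1, lower, and 1 other gene, TMEM37, which was lower. Of all 753 listed genes 73.7% were higher. Potassium ion transport held 6 of the transport genes, 3 higher and 3 lower, and 1 other gene, FXYD2, which was higher.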
